A study of Mus musculus with 18 samples.

Results

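Genes that mark regenerating, fetal-like epithelium were followed in the colon of mice with and without claudin-2. The set comprised *Ly6a*, *Anxa1*, *Anxa3*, *Clu*, *Krt7*, *S100a6*, *Plet1*, *Plet1os* and *Gprc5a*, and all 9 were found by symbol among the 47729 genes of the count table. Of these, 3 had been chosen by their measured response in these samples, *Plet1* and *Plet1os* by the comparison of genotypes in controls and *Gprc5a* by the comparison of genotypes in recovery. Their values on those libraries are given below as a description and no test is attached to them. All 9 genes passed the filter on low counts that left 16937 genes to test.

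The samples were colon RNA from WT mice and from Claudin-2 knockout (*Cldn2*KO) mice, which lack a channel-forming tight junction protein. Both lines had a C57BL/6 background and the study bred knockout and WT animals as littermates. Mice of each genotype were labelled Control, DSS-Recovery or AOM-DSS, which gave 6 groups of 3 libraries. Dextran sulfate sodium (DSS) injures the colonic epithelium, and the recovery groups were taken after colitis, at a time the labels do not give. The AOM-DSS groups, a model of colitis-associated cancer, were taken as those given the carcinogen azoxymethane (AOM) at 10 mg/kg and 3 cycles of 2.5% DSS, a protocol that the labels print alike for all 18 samples. The labels give neither age nor sex, and they tie the knockout to no cell type, so epithelium and other cells of the colon cannot be told apart as its site. The labels do not say that the libraries of a group came from separate animals, and p-values measure the spread between these libraries. In 3 groups the libraries differed in *Xist*, given below, so those groups did not come from 1 animal each.

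After injury, crypts of the intestine can lose their adult stem cell program for a time and turn on genes of the fetal gut. *Ly6a*, which encodes the surface protein SCA-1, is the usual marker of this state, and the annexins, *Clu* and the keratin *Krt7* belong to the same program. The transcriptional partners YAP and TAZ, which act through TEAD factors, are known drivers of it, and interferon gamma is a known inducer of *Ly6a*. *Plet1* encodes a surface protein of progenitor epithelium that takes part in the closing of colonic wounds.

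*Plet1* and *Plet1os* share a locus, so its layout bears on every value of the pair. In GRCm38, *Plet1* (ENSMUSG00000032068) runs on the plus strand at chr9:50494525-50505482 in 5 exon blocks of 1947 bases. The antisense transcript *Plet1os* (ENSMUSG00000101304) runs on the minus strand at chr9:50488795-50507823, around the whole of *Plet1*, in 4 blocks of 1245 bases. Their exons share 261 bases, which are 13.4% of *Plet1* and 21% of *Plet1os*. Whether the counting used strand was not given in the sources used here, so reads of the shared bases cannot be assigned with certainty. The promoter is shown because the level of *Plet1* differed 310.5-fold between the lowest and the highest library, the widest range among the 8 genes with reads in every library. The 250 bases before its RefSeq start site, at chr9:50494275-50494524 on the plus strand of GRCm38.p6, read as follows. A match to a loose form of the AP-1 motif is in capitals.

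Plet1 promoter: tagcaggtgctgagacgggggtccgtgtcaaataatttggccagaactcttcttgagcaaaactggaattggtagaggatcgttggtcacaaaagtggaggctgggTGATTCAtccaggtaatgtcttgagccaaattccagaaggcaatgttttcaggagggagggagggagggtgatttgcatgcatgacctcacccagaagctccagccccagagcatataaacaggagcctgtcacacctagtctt

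The capitals start 144 bases before the start site and match TGANTCA, a loose form of the motif of AP-1, a factor of stress and wound responses. This form accepts any middle base, which is T here, so the match to AP-1 is partial. The letters occur in 6.75% of 32851 RefSeq promoter windows of 250 bases, searched on both strands. The TEAD motif GGAATG, present in 12.6% of windows, the GAS motif TTCNNNGAA, present in 7.02%, and the interferon-stimulated response element, present in 2.98%, had no match in this window. Of the other 8 genes, 4 had a RefSeq window (*Anxa1*, *Krt7*, *S100a6* and *Plet1os*), and the TEAD motif in *Anxa1* and *Plet1os* was the only match. These 4 windows lie wholly or partly inside the spans that the count table gives their genes, and that of *Plet1os* lies within the last exon of *Plet1*. A match is a string of letters and not a site of binding, and the absence of a match covers these bases only.

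The libraries held 17.6 to 27.4 M counted reads (median 19.6 M). *Cldn2* was at 44.5 to 504 CPM (reads of a gene per M library reads, scaled by edgeR's TMM) in WT libraries and at 0.0555 to 0.557 CPM in *Cldn2*KO libraries, as labelled. *Hoxb13*, a homeobox gene of the distal colon, was at 198 to 570.1 CPM in 11 libraries but at no more than 0.502 CPM in the other 7, which were the 6 recovery libraries and WT control 2. The long noncoding RNA *Xist*, expressed in female cells, was at 865 to 1742 CPM in 6 libraries (recovery libraries 2 and 3 of both genotypes and *Cldn2*KO AOM-DSS libraries 2 and 3) and at no more than 1.16 CPM in the other 12. The study names distal colon as the source of the recovery RNA, and the level of *Hoxb13* in those libraries goes against this. It describes its mice as matched for age and sex, but among AOM-DSS libraries only *Cldn2*KO 2 and 3 had *Xist*. The library labelled WT control 2 was with the recovery libraries in *Hoxb13*. It was at 173 CPM in summed T and NK cell markers, where WT controls 1 and 3 were at 13.5 and 19.7. In these markers it was within WT recovery (68.7 to 204.5 CPM) and above *Cldn2*KO recovery (29.2 to 44.4 CPM). It was within the other WT controls in summed smooth muscle markers (4767 CPM, against 4092 and 6106, and 862 to 2280 in WT recovery) and below them in *Cldn2* (44.5 CPM, against 127 and 131, and 309 to 504 in WT recovery). It was kept as labelled, and every WT control mean includes it. Colon region and recovery cannot be told apart in the *Cldn2*KO mice, nor in WT mice once WT control 2 is left out. The main results that rest on WT control 2 are given with and without it.

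Compared per length, as CPM per kilobase of exon (RPKM), the 9 genes spanned a wide range of level. In WT controls, mean RPKM was highest for *S100a6*, a calcium-binding protein (1341 ± 745, SD, n = 3), and for *Ly6a* (1219 ± 874), and these did not differ beyond their spread. *Anxa1*, an annexin that limits inflammation and promotes wound closure (141 ± 107), *Gprc5a*, an orphan receptor induced by retinoic acid (132 ± 11.7), and *Anxa3* (87.3 ± 71.5) overlapped as well. The next means were those of *Plet1* (46.7 ± 22.2), which overlapped the annexins through WT control 2, *Krt7* (14.1 ± 4.42), *Clu*, a secreted chaperone that marks revival stem cells (7.47 ± 4.78), and *Plet1os* (2.15 ± 0.693). The plot of levels by library shows the pattern of each gene over the 6 groups.

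**Figure D1:**
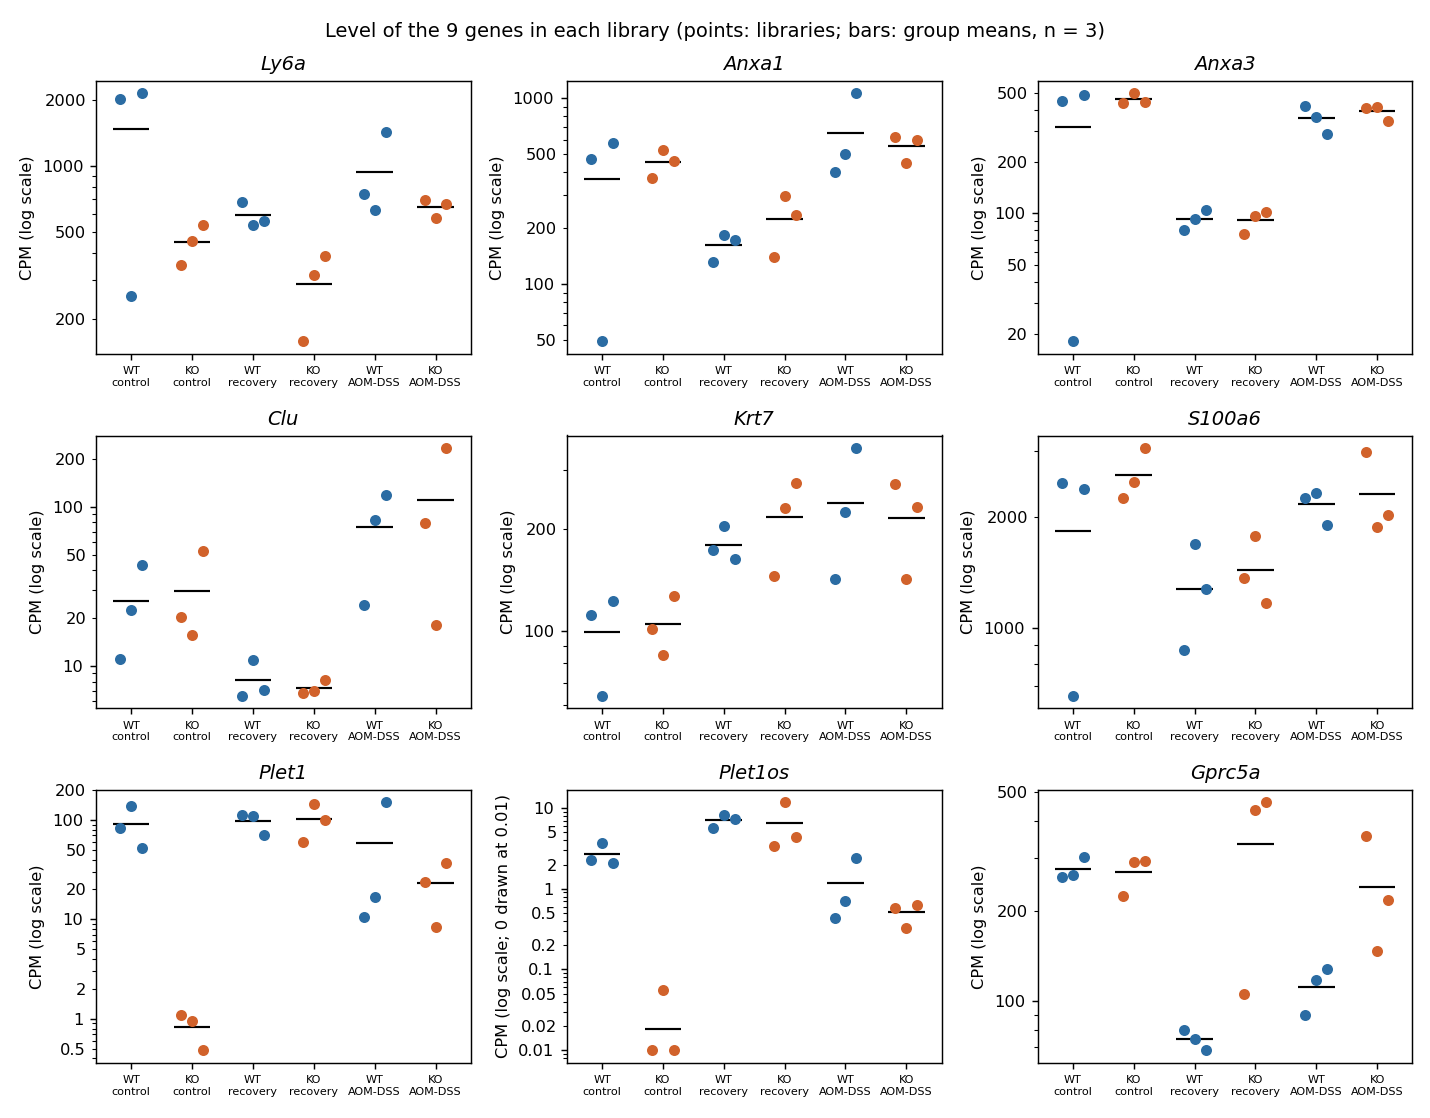
Level of each of the 9 genes in CPM (log scale) in the 18 libraries, by group (blue points: WT; orange points: *Cldn2*KO; bars: means of 3 libraries; *Plet1os* at 0 is drawn at 0.01). *Plet1* stayed at or under 1.09 CPM in *Cldn2*KO controls, and *Anxa3* stayed at or under 104 CPM in the recovery libraries and WT control 2.

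*Plet1* was nearly absent from the colon of *Cldn2*KO controls and present in every other group. It was at 82.8, 138 and 52.5 CPM in the WT controls and at 1.09, 0.943 and 0.484 CPM in the *Cldn2*KO controls. In the recovery groups its level was 112, 109 and 71.3 CPM for WT mice and 59.8, 143 and 101 CPM for *Cldn2*KO mice. The *Cldn2*KO recovery libraries thus bracketed the WT recovery libraries. In AOM-DSS it was at 10.7, 16.7 and 150.4 CPM in WT mice and at 23.6, 8.44 and 37.1 CPM in *Cldn2*KO mice.

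The order of the group means ran from *Cldn2*KO recovery (101 ± 41.8 CPM, SD, n = 3), WT recovery (97.5 ± 22.8) and WT controls (91.0 ± 43.1), which did not differ beyond their spread, to WT AOM-DSS (59.3 ± 79.0), *Cldn2*KO AOM-DSS (23.1 ± 14.3) and *Cldn2*KO controls (0.837 ± 0.314). The libraries of WT AOM-DSS overlapped every group but *Cldn2*KO controls, and its rank rested on library 3. The control libraries held 5164 *Plet1* reads in WT and 48 in *Cldn2*KO mice, a ratio of 104 after scaling (95% exact counting interval 78.2 to 141, which covers counting error only). Since *Plet1* was listed for this difference, the ratio is a description.

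The genotype difference in *Plet1* was tested where the listing did not use it, in recovery and in AOM-DSS. The log2 fold change, *Cldn2*KO minus WT, was 0.06 in recovery (edgeR quasi-likelihood adjusted p 0.982, SE 0.761) and -1.36 in AOM-DSS (edgeR adjusted p 0.871, SE 0.779). The AOM-DSS estimate rested on WT AOM-DSS library 3, and without that library it was 0.75 (edgeR adjusted p 0.984). The difference between these 2 genotype effects was -1.42 (SE 1.08, edgeR adjusted p 0.915), and 0.68 without the same library.

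*Plet1os* followed *Plet1* at a far lower level. It was at 2.28, 3.67 and 2.08 CPM in WT controls and at 0, 0.0555 and 0 CPM in *Cldn2*KO controls. In recovery it was at 5.66, 8.25 and 7.33 CPM in WT mice and at 3.43, 11.8 and 4.43 CPM in *Cldn2*KO mice. In AOM-DSS it was at 0.436, 0.700 and 2.41 CPM in WT mice and at 0.571, 0.325 and 0.634 CPM in *Cldn2*KO mice. The groups of the 2 genotypes overlapped in recovery and in AOM-DSS. The controls held 152 reads in WT and 1 read in *Cldn2*KO mice, a ratio of 147 (95% exact counting interval 25.9 to 5832, which covers counting error only). *Plet1os* was listed for this difference too, so the ratio is a description. Between genotypes, *Plet1os* gave a log2 estimate of -0.11 in recovery (edgeR adjusted p 0.944, SE 0.551) and of -1.21 in AOM-DSS (edgeR adjusted p 0.871, SE 0.622), the latter -0.17 without WT AOM-DSS 3.

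In the libraries with over 100 *Plet1* reads, there were 1.60 to 10.3 *Plet1os* reads for every 100 of *Plet1*. This share was 2.67 to 3.97 in the WT controls, 4.39 to 10.3 in the recovery libraries and 1.60 to 4.20 in the AOM-DSS libraries. Across the 18 libraries the log2 levels of the pair had a Pearson r of 0.94, and 0.85 after removing group means. These values describe genes that share exon bases and libraries.

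**Figure D2:**
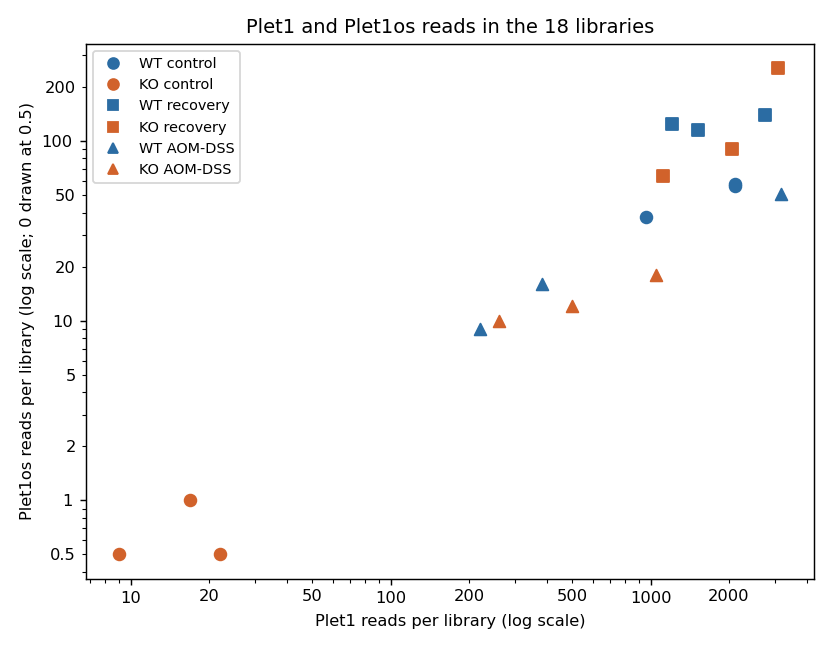
Reads of *Plet1os* against reads of *Plet1* in each of the 18 libraries (log scales; a library with 0 *Plet1os* reads is drawn at 0.5; colour: genotype; shape: treatment). The 3 *Cldn2*KO control libraries, with 9 to 22 *Plet1* reads and at most 1 *Plet1os* read, lie apart from the other 15, which held 221 to 3180 *Plet1* reads.

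The genes with the pattern most like *Plet1* over the 18 libraries, among 13173 named genes ranked by Pearson r of log2 CPM, were *Soat2*, which esterifies cholesterol (r = 0.92), *Ddah1* (0.91) and *Rnf128* (0.89). For *Plet1os* the first 2 were *Cpne8* (0.93) and *Retnlb* (0.91), the goblet cell product RELM-beta. These are descriptions over libraries that fall into groups.

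*Gprc5a* was high in every control library, low in WT mice after injury and variable in *Cldn2*KO mice after injury. It was at 260.1, 264 and 304 CPM in WT controls and at 224, 291 and 294 CPM in *Cldn2*KO controls. In recovery it was at 80.4, 75.0 and 68.6 CPM in WT mice and at 105, 435 and 461 CPM in *Cldn2*KO mice. The lowest *Cldn2*KO recovery library was still above all WT recovery libraries, and it was the 1 *Cldn2*KO recovery library without *Xist*. In AOM-DSS it was at 90.0, 117 and 128 CPM in WT mice and at 357, 148 and 218 CPM in *Cldn2*KO mice, where the highest was the library without *Xist*.

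*Gprc5a* was listed for the recovery difference (2.16 on the log2 scale, SE 0.415), and the control and AOM-DSS libraries are independent of that choice. In AOM-DSS the genotypes differed by 1.11 on that scale with no overlap of the groups, which missed the threshold (edgeR adjusted p 0.862, SE 0.402). In controls it was -0.03 (SE 0.397, edgeR adjusted p 0.985). The difference between these effects was 1.14 (SE 0.563, edgeR adjusted p 0.612). In WT mice, AOM-DSS minus control gave -1.30 (SE 0.404, edgeR adjusted p 0.0509), and DESeq2 gave an adjusted p of 0.0151 (range over 13 alternatives 0.0151 to 0.155). In *Cldn2*KO mice the same comparison gave -0.16 (SE 0.397, edgeR adjusted p 0.879).

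*Ly6a* was at its highest in 2 WT control libraries. It was at 2018, 255 and 2134 CPM in WT controls and at 353, 451 and 535 CPM in *Cldn2*KO controls. WT control 2, the control without *Hoxb13*, was thus below all *Cldn2*KO controls. In recovery it was at 684, 537 and 558 CPM in WT mice and at 158, 315 and 388 CPM in *Cldn2*KO mice, and the groups did not overlap. In AOM-DSS it was at 745, 629 and 1422 CPM in WT mice and at 694, 574 and 671 CPM in *Cldn2*KO mice, which overlapped.

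The *Ly6a* difference between genotypes in controls, on the log2 scale, was -1.72 (edgeR adjusted p 0.164, SE 0.553). For recovery the estimate was -1.05 (edgeR adjusted p 0.304), and for AOM-DSS it was -0.53 (edgeR adjusted p 0.921). Without WT control 2 the control difference was -2.24 (SE 0.349, edgeR adjusted p 0.00559), and DESeq2 with all libraries gave an adjusted p of 0.0356, in a range of 0.00559 to 0.4795 over 14 alternatives. The genotype effect did not pass a test of difference between any 2 treatments, with log2 differences from 0.52 to 1.19 and edgeR adjusted p from 0.685 to 0.937. The difference of recovery from controls, without WT control 2, was 1.18 (edgeR adjusted p 0.237) in place of 0.67, and that of AOM-DSS from controls was 1.72 (0.377) in place of 1.19. In WT mice, *Ly6a* in AOM-DSS minus controls gave -0.66 (edgeR adjusted p 0.445), and -1.17 (0.082) without that library.

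Genes induced by interferon also differed between genotypes in controls and in recovery. In controls 11 of 22 listed interferon-induced genes were lower in *Cldn2*KO mice and 0 were higher, beside 1.17% of all genes called, with a median log2 fold change of -2.07 beside -0.01 over all genes tested. In recovery 10 of 22 were lower and 0 higher, beside 0.974% of all genes (median -2.04, beside 0.00). In AOM-DSS 0 of 22 passed by edgeR or by DESeq2 (median -0.60), with 7 at an unadjusted p under 0.05 by edgeR, beside 949 of 16937 genes. Named among those that fell in controls were *Iigp1*, a GTPase against intracellular pathogens (log2 fold change -3.39, edgeR adjusted p 0.0319), *Gbp6* (-2.65, 0.0307), the peptide transporter *Tap1* (-2.62, 0.0032) and *Igtp* (-2.28, 0.0208).

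The summed level of the interferon list was 1964 to 2052 CPM in WT controls and 545 to 810 CPM in *Cldn2*KO controls. WT control 2 was thus with the other WT controls in this list (1964 CPM), while its *Ly6a* (255 CPM) was below all *Cldn2*KO controls. It was 1068 to 2014 CPM in WT recovery, 421 to 680 CPM in *Cldn2*KO recovery, 628 to 1429 CPM in WT AOM-DSS and 718 to 841 CPM in *Cldn2*KO AOM-DSS. Without WT control 2, 11 of the 22 genes again passed as lower in controls. Markers of T and NK cells summed to 13.5, 173 and 19.7 CPM in WT controls and to 3.50, 1.72 and 9.80 CPM in *Cldn2*KO controls, with 5 of 11 called lower, 1 of 11 without WT control 2 and 2 of 11 with *Xist* as a covariate. Markers of B and plasma cells summed to 955.5 to 1194 CPM in WT controls and to 246 to 417 CPM in *Cldn2*KO controls, with 3 of 10 called lower, and 2 of 10 without WT control 2. Bulk levels do not separate fewer cells of a type from less RNA per cell, and the part of these cells in the *Ly6a* level was not tested.

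Over the 9 genes, the genotype comparisons gave few differences outside those used for the listing. In controls, 0 of 7 genes open to a test passed by edgeR, while 1.17% of all genes did. At an unadjusted p under 0.05 by edgeR there was 1 gene, *Ly6a*, beside 2223 of 16937 genes. DESeq2 also called *Ly6a*, beside 672 of all genes. In recovery, 0 of 8 passed by edgeR, beside 0.974% of all genes. At an unadjusted p under 0.05 by edgeR there were 0, beside 3371 of 16937 genes, and DESeq2 called 0, beside 1334 of all genes. In AOM-DSS, 0 of 9 passed by edgeR, beside 0.0059% of all genes. At an unadjusted p under 0.05 by edgeR there was 1, *Gprc5a*, beside 949 of 16937 genes, and DESeq2 called 0, beside 3 of all genes.

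Groups did not overlap in CPM for 0 of the 7 genes in controls, for 1 of 8 in recovery (*Ly6a*) and for 1 of 9 in AOM-DSS (*Gprc5a*). Over all genes tested these shares were 22.3%, 23.9% and 11.3%. Tests of whether a genotype effect differed between treatments passed by edgeR for 0 of 6 genes between recovery and controls (0.13% of all genes), 0 of 7 between AOM-DSS and controls (0.0118%) and 0 of 8 between AOM-DSS and recovery (0%). No gene of the 3 sets had an unadjusted p under 0.05 by edgeR, beside 3141, 1429 and 732 of 16937 genes in that order. DESeq2 called 0, beside 871, 86 and 9 of all genes. These comparisons share libraries with each other.

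**Figure D3:**
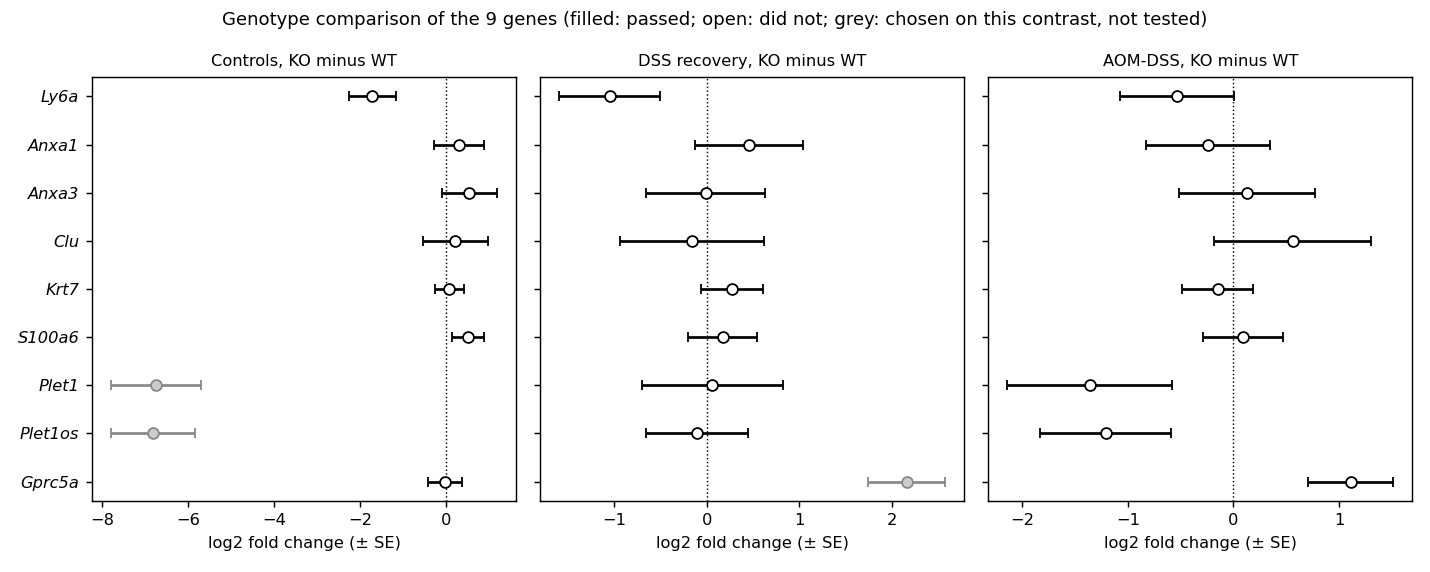
Log2 fold change, *Cldn2*KO minus WT, of the 9 genes in controls, recovery and AOM-DSS (points: edgeR estimates; bars: SE; open: did not pass at an adjusted p of 0.05; grey: the contrast for which the gene was listed, not tested). No point is filled, and the grey points of *Plet1* and *Plet1os* in controls and *Gprc5a* in recovery lie farthest from 0. The *Plet1os* estimate in controls rests on 1 read in *Cldn2*KO mice, and the horizontal scales differ between panels.

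In *Cldn2*KO recovery, *Anxa3* fell and *Krt7* rose relative to controls. *Anxa3*, a calcium-dependent membrane-binding protein, was at 440.3, 497.5 and 442 CPM in *Cldn2*KO controls and at 75.9, 96.6 and 102 CPM after recovery, and it fell by 2.33 on the log2 scale (edgeR adjusted p 0.0259, SE 0.675). *Krt7*, a keratin of simple and ductal epithelium, was at 101, 84.4 and 127 CPM in *Cldn2*KO controls and at 145, 232 and 274 CPM after recovery, and it rose by 1.06 (edgeR adjusted p 0.0379, SE 0.336). Neither gene overlapped between the groups. With *Xist* as a covariate, both missed the threshold (*Anxa3* edgeR adjusted p 0.069, *Krt7* 0.136), and each passed in 5 of 13 alternatives (1.77e-05 to 0.0821 and 0.0136 to 0.136).

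These were 2 of 6 genes open to a test in *Cldn2*KO mice, beside 19.4% of all genes. Groups did not overlap for 5 of the 6, beside 40.3% of all genes, with *Anxa1*, *Anxa3*, *Clu* and *S100a6* lower and *Krt7* higher. *Clu* was at 20.4, 15.6 and 53.1 CPM in *Cldn2*KO controls and at 6.75, 7.01 and 8.12 CPM after recovery, a log2 difference of -2.02 (edgeR adjusted p 0.0877, DESeq2 adjusted p 0.0244, range over alternatives 0.0156 to 0.352). *S100a6* was at 2240, 2476 and 3064 CPM in *Cldn2*KO controls and at 1365, 1775 and 1172 CPM in recovery (a log2 difference of -0.85, edgeR adjusted p 0.131). *Anxa1* was at 373, 527 and 457 CPM in *Cldn2*KO controls and at 140.4, 298 and 234 CPM in recovery, with no overlap (-1.01, edgeR adjusted p 0.255).

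In WT mice the same genes depended on WT control 2. *Anxa3* was at 449.7, 18.1 and 486 CPM in WT controls and at 80.3, 92.7 and 104 CPM in WT recovery. *Anxa1* was at 472, 49.2 and 578 CPM in WT controls and at 132, 185 and 173 CPM in WT recovery. *S100a6* was at 2469, 658 and 2372 CPM in WT controls and at 873, 1684 and 1277 CPM in WT recovery. In each of these genes WT control 2 was below all WT recovery libraries, while the other controls were above them.

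With all libraries, 0 of 6 genes passed by edgeR in WT mice, beside 22.2% of all genes. At an unadjusted p under 0.05 by edgeR there were 3, beside 6149 of 16937 genes. DESeq2 called 1, *Anxa3* (adjusted p 0.0199, range over alternatives 3.46e-07 to 0.276), beside 4494 of all genes. Leaving out WT control 2 removes the only WT control without *Hoxb13*, so region and recovery then cannot be told apart in WT mice. Without this library, 4 of 6 genes fell, beside 25.1% of all genes called. These were *Anxa3* by 2.36 (SE 0.181, edgeR adjusted p 3.46e-07), *Ly6a* by 1.83 (SE 0.346, 0.00143), *Anxa1* by 1.71 (SE 0.36, 0.00312) and *S100a6* by 0.94 (SE 0.274, 0.02) on the log2 scale.

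For *Krt7* and *Clu* the WT controls did not overlap WT recovery. *Krt7* was at 111, 64.0 and 123 CPM in WT controls and at 174, 204 and 163 CPM in WT recovery, with no overlap (a log2 difference of 0.86, edgeR adjusted p 0.0764, and 0.60 with 0.228 without WT control 2). *Clu* was at 11.1, 22.5 and 43.4 CPM in WT controls and at 6.51, 10.9 and 7.10 CPM in WT recovery, again with no overlap (-1.66, edgeR adjusted p 0.142). They were the 2 of 6 genes whose groups were apart in WT mice, beside 37.7% of all genes. None of the 6 genes passed a test of whether its response to recovery differed between genotypes (log2 differences from -0.55 to 0.67, edgeR adjusted p from 0.685 to 0.948).

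The distal marker *Hoxb13* split without overlap 3 of the 6 genes that were not chosen by their response, beside 8.34% of all genes tested. In the 7 libraries without it, *Anxa3* was at 18.1 to 104 CPM, *Anxa1* at 49.2 to 298 CPM and *S100a6* at 658 to 1775 CPM. In the 11 libraries with it, *Anxa3* was at 291 to 497.5 CPM, *Anxa1* at 373 to 1063 CPM and *S100a6* at 1880 to 3064 CPM. *Plet1os*, chosen on libraries that enter this split, lay the other way, at 3.43 to 11.8 CPM without *Hoxb13* and at 0 to 2.41 CPM with it. The other 5 overlapped, among them *Krt7* (64.0 to 274 CPM against 84.4 to 349.8) and *Ly6a* (158 to 684 CPM against 353 to 2134). All 6 listed genes of distal position were lower in recovery in both genotypes, and the part of colon region in the levels above was not tested.

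**Figure D4:**
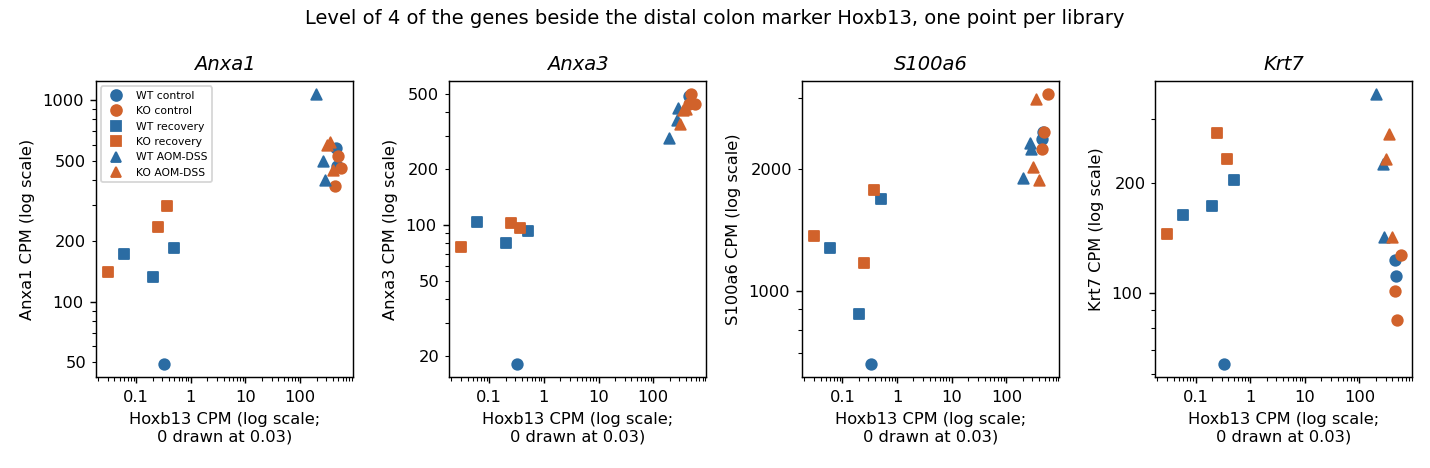
Levels of *Anxa1*, *Anxa3*, *S100a6* and *Krt7* against the level of *Hoxb13* in each of the 18 libraries (CPM, log scales; 0 is drawn at 0.03; colour: genotype; shape: treatment). The 7 libraries at or under 0.502 CPM of *Hoxb13* lie below the other 11 in the first 3 genes and among them in *Krt7*.

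Markers of other cell types were called in recovery too, where 22.2% of all genes were called in WT and 19.4% in *Cldn2*KO mice. Of 10 smooth muscle markers, 7 were lower in WT recovery and 10 in *Cldn2*KO recovery, and their summed level was 4092 to 6106 CPM in WT controls, 8277 to 10720 CPM in *Cldn2*KO controls, 862 to 2280 CPM in WT recovery and 986 to 1646 CPM in *Cldn2*KO recovery. Of 10 fibroblast markers, 4 were lower in WT and 5 in *Cldn2*KO recovery. Of 10 B and plasma cell markers, 6 and 3 were lower, and of 10 myeloid markers 5 and 4 were lower, with 2 higher in *Cldn2*KO mice. T and NK cell markers had 6 of 11 higher in *Cldn2*KO recovery and 1 of 11 lower in WT recovery, which became 7 higher and 1 lower without WT control 2. Of 12 epithelial markers, 5 were lower and 1 higher in WT recovery (median log2 fold change -0.47) and 1 was lower and 2 higher in *Cldn2*KO recovery (median -0.10), with summed levels of 20800 to 26300 CPM over the controls and 16860 to 25850 CPM over the recovery libraries. In WT AOM-DSS 5 of the 12 were lower (median -0.62). In recovery, mesothelium markers had 1 of 6 higher in WT and 2 of 6 in *Cldn2*KO mice (medians 1.10 and 2.15). Of 8 crypt stem cell markers, 1 was higher in WT mice, and 1 was higher and 1 lower in *Cldn2*KO mice. Of 10 endothelial markers, 4 were lower in WT and 0 in *Cldn2*KO recovery, and of 8 M cell and follicle markers 3 and 1 were lower. The part of tissue makeup in the levels of the 9 genes was not tested.

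Other genes of the fetal-like and wound-associated program moved in both directions in recovery. Of 45 listed genes, 44 could be tested. In WT mice 2 rose and 10 fell (median log2 fold change -0.38, beside -0.04 over all genes), and in *Cldn2*KO mice 6 rose and 6 fell (median 0.03, beside 0.00). This was 27.3% of the list in each genotype, beside 22.2% of all genes in WT mice and 19.4% in *Cldn2*KO mice, and without WT control 2 the WT counts were 3 and 11. Genes that rose in *Cldn2*KO recovery included *Itga2*, an integrin that binds collagen (log2 fold change 4.22, edgeR adjusted p 0.000496), *Emp1* (4.15, 0.00868), the urokinase receptor *Plaur* (3.34, 0.0123) and *Sprr1a*, a cornified envelope protein of wounded epithelium (3.26, 0.0441).

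The annexin *Anxa8* fell furthest of the list in both genotypes, with log2 fold changes of -5.43 in WT mice (edgeR adjusted p 0.00159) and -5.62 in *Cldn2*KO mice (0.00106). Its mean was 181 CPM in WT controls and 216 CPM in *Cldn2*KO controls, against 4.22 and 4.39 CPM in the recovery groups. The hyaluronan receptor *Cd44* rose in both, by a log2 fold change of 1.77 in WT mice (edgeR adjusted p 0.00647) and 2.14 in *Cldn2*KO mice (0.00236). With *Xist* as a covariate, 7 genes of the list passed in each genotype instead of 12. The calls over all genes went from 3767 to 2359 in WT mice and from 3291 to 1887 in *Cldn2*KO mice.

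Relatives of the members were called in both directions. Of 11 annexins tested, *Anxa1* and *Anxa3* included, 1 rose and 3 fell in WT recovery and 3 rose and 3 fell in *Cldn2*KO recovery. Of 12 S100 genes, 0 rose and 2 fell in WT mice and 2 rose and 3 fell in *Cldn2*KO mice, and of 11 Ly6 genes 4 and 2 fell. These counts stand beside 22.2% of all genes in WT and 19.4% in *Cldn2*KO mice. Among annexins, *Anxa6* fell in both genotypes (-1.39 in WT mice, edgeR adjusted p 0.00933, and -1.84 in *Cldn2*KO mice, 0.00198) and *Anxa9* rose in both (2.16, 0.0318, and 3.01, 0.0124). *S100a14* fell in both (-2.32, 0.0257, and -2.29, 0.0291), as did *S100a16* (-1.29, 0.0482, and -1.60, 0.0205). The neutrophil proteins *S100a8* (edgeR adjusted p 0.0445) and *S100a9* (0.0189) rose in *Cldn2*KO recovery, from means of 0.0359 and 0.0344 CPM to 4.76 and 5.29 CPM. *Ly6e*, a family member of *Ly6a*, fell in WT recovery (-1.32, edgeR adjusted p 0.0367), and *Ly6c2* fell in WT recovery (-2.91, 0.00532) and was lower in *Cldn2*KO than in WT controls (-2.68, 0.0459).

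Among YAP and TAZ targets, 0 of 22 rose and 6 fell in WT recovery (27.3% called, beside 22.2% of all genes; median -0.72, beside -0.04). In *Cldn2*KO recovery 1 rose and 6 fell (31.8% called, beside 19.4%, with a median of -0.32, beside 0.00). With *Xist* as a covariate 1 rose and 3 fell, while the calls over all genes went from 3291 to 1887. *Nt5e*, a nucleotidase on the cell surface, fell by 4.34 on the log2 scale in WT mice (edgeR adjusted p 0.00155), with an estimate of -4.09 in *Cldn2*KO mice (0.00154). Of 7 listed YAP, TAZ and TEAD factors, 1 was called in each genotype, with list medians of -0.29 in WT and -0.08 in *Cldn2*KO mice. This was *Wwtr1*, which encodes TAZ, with log2 fold changes of -1.51 in WT mice (edgeR adjusted p 0.0031) and -1.85 in *Cldn2*KO mice (0.00092). The stress gene *Gadd45a* was the target that rose in *Cldn2*KO mice (1.03, 0.0327).

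In AOM-DSS, *Krt7* was the only member to pass the test against controls by edgeR with all libraries. It was at 143, 225 and 349.8 CPM in WT AOM-DSS, above all 3 WT controls, and rose by 1.27 on the log2 scale (edgeR adjusted p 0.0326, SE 0.338, range over 13 alternatives 0.00534 to 0.171). In *Cldn2*KO AOM-DSS it was at 272, 142 and 234 CPM, again above all controls of its genotype (1.05, edgeR adjusted p 0.173, SE 0.336). The response did not pass a test of difference between genotypes (-0.22, SE 0.471, edgeR adjusted p 0.923). Without WT control 2, *Krt7* in WT mice gave 1.01 (edgeR adjusted p 0.129), and without WT AOM-DSS 3 it gave 0.89 (0.148).

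This was 1 of 7 genes open to a test in WT mice, beside 10.4% of all genes. In *Cldn2*KO mice, 0 of 7 passed by edgeR, beside 0.195% of all genes, and 0 by DESeq2, beside 592 of all genes. At an unadjusted p under 0.05 by edgeR there were 2 (*Krt7* and *Clu*), beside 2573 of 16937 genes. Groups did not overlap for 2 of 7 genes in WT mice, *Krt7* and *Gprc5a*, beside 32.2% of all genes. In *Cldn2*KO mice they did not overlap for 3 of 7, with *Krt7* and *Ly6a* higher and *Anxa3* lower, beside 29.1% of all genes.

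*Clu* varied widely within AOM-DSS. It was at 24.4, 82.5 and 119 CPM in WT mice and at 79.1, 18.04 and 235 CPM in *Cldn2*KO mice, so 1 library of each genotype was within the range of its controls. Its log2 fold changes were 1.55 in WT mice (SE 0.765, edgeR adjusted p 0.187) and 1.90 in *Cldn2*KO mice (SE 0.77, edgeR adjusted p 0.262). The latter was 0.74 (0.829) without *Cldn2*KO AOM-DSS 3, and over all alternatives the values ran from 1.06 to 2.17 in WT and from 0.74 to 2.66 in *Cldn2*KO mice. *Lyz1*, a lysozyme of Paneth cells, had the pattern most like *Clu* (r = 0.93 over 18 libraries), with a range of 0.118 to 1088 CPM.

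The annexins and *S100a6* did not pass a test against controls in AOM-DSS in either genotype by edgeR or DESeq2. *Anxa1* was at 399, 499.8 and 1063 CPM in WT and at 618, 450.2 and 598 CPM in *Cldn2*KO mice. *Anxa3* was at 419.5, 363 and 291 CPM in WT and at 410.2, 416 and 346 CPM in *Cldn2*KO mice, and *S100a6* was at 2249, 2322 and 1904 CPM in WT and at 2993, 1880 and 2024 CPM in *Cldn2*KO mice. *Anxa1* averaged 654 ± 358 CPM in WT AOM-DSS against 366 ± 280 CPM in WT controls (SD, n = 3), with overlap, and *Anxa3* in *Cldn2*KO AOM-DSS lay below its controls. As in controls 1 and 3 of WT mice and all *Cldn2*KO controls, *Hoxb13* was present in all of these libraries.

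**Figure D5:**
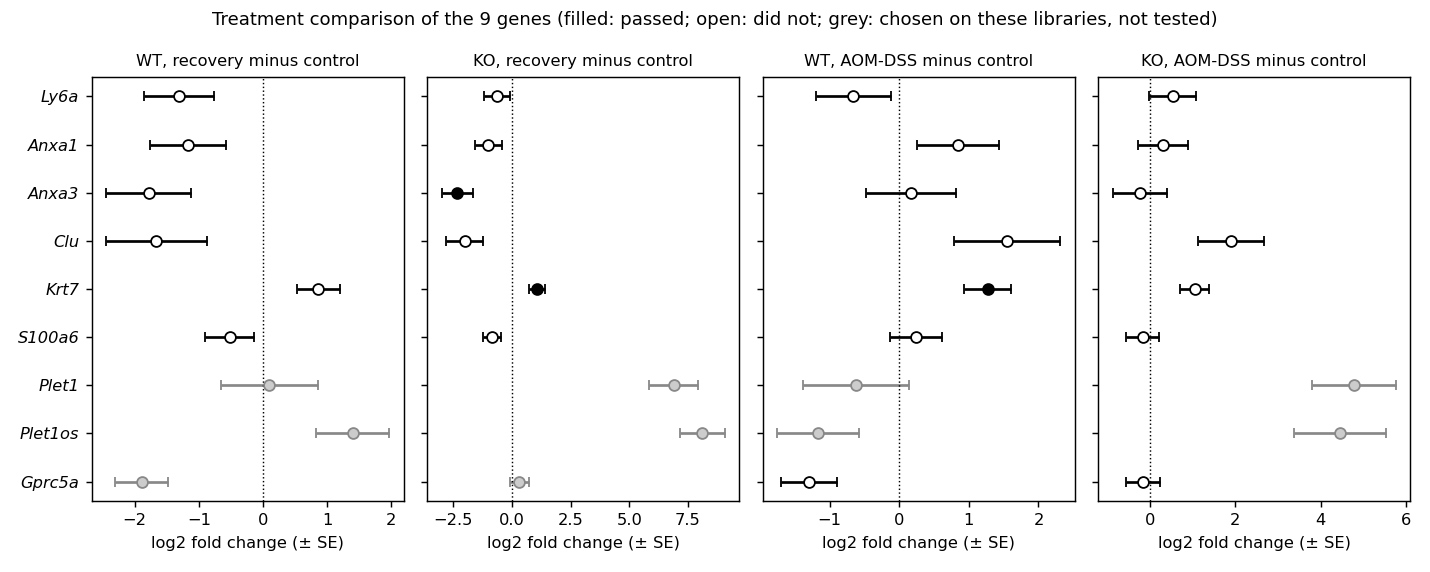
Log2 fold change against controls of the same genotype for recovery and AOM-DSS (points: edgeR estimates; bars: SE; filled: adjusted p under 0.05; open: did not pass; grey: libraries for which the gene was listed, not tested). *Anxa3* and *Krt7* are filled in *Cldn2*KO recovery and *Krt7* in WT AOM-DSS; the horizontal scales differ between panels.

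Other fetal-like genes in WT AOM-DSS rose in 3 cases and fell in 3 of 44 (median log2 fold change 0.48, beside 0.01 over all genes), which was 13.6% of the list beside 10.4% of all genes. Those that rose included the keratin *Krt23* (log2 fold change 2.90, edgeR adjusted p 0.0427) and *Itga2* (1.74, 0.0474). Largest among those that fell was *Emp1* (-3.78, 0.0286), which had risen in *Cldn2*KO recovery. In *Cldn2*KO AOM-DSS, 0 of 44 passed by edgeR and 7 by DESeq2 (median 0.53, beside 0.01), beside 33 of all genes (0.195%) by edgeR and 592 by DESeq2. At an unadjusted p under 0.05 by edgeR there were 14 of the 44, beside 2573 of 16937 genes. Without WT control 2, 1 of the 44 passed in WT mice, and 2 with *Xist* as a covariate, while the calls over all genes went from 1761 to 345 and 1269. The simple epithelial keratin *Krt20*, a marker of mature surface cells, fell in WT AOM-DSS (-2.01, 0.00455), where *Krt7* rose.

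Markers of squamous and anal epithelium were low throughout but varied within AOM-DSS, at 6.49, 45.0 and 71.7 CPM summed in WT mice and at 56.5, 14.9 and 69.9 CPM in *Cldn2*KO mice, against 2.88 to 15.1 CPM over the controls. All 8 that could be tested had higher estimates in WT AOM-DSS than in controls, with 1 called and 5 at an unadjusted p under 0.05 by edgeR (median 2.68), and 7 of 8 in *Cldn2*KO AOM-DSS, with 0 called, 4 at an unadjusted p under 0.05 by edgeR and 0 called by DESeq2 (median 2.23). In WT AOM-DSS 0 were called without WT control 2. Over all 16937 genes, 5069 in WT and 2573 in *Cldn2*KO AOM-DSS were at an unadjusted p under 0.05 by edgeR. Of the defining keratins, *Krt5* was at no more than 0.394 CPM in any library, while *Krt14* was at 2.71 to 24.6 CPM in WT and 3.47 to 37.6 CPM in *Cldn2*KO AOM-DSS. In WT AOM-DSS, markers of epithelium (5 of 12, median log2 fold change -0.62), smooth muscle (5 of 10, -1.44), enteric neurons and glia (5 of 10, -1.80), T and NK cells (2 of 11, -2.04) and mesothelium (2 of 6, -3.75) were also called lower, and markers of myeloid cells (3 of 10, -0.30) and crypt stem cells (2 of 8, 1.03) higher, beside 10.4% of all genes. T and NK cell markers summed to 13.5, 173 and 19.7 CPM in WT controls and to 9.63 to 23.2 CPM in WT AOM-DSS. Mesothelium markers summed to 11.1, 35.8 and 9.10 CPM and to 2.66 to 20.5 CPM. In both lists WT control 2 was the highest, and the other WT controls lay within the AOM-DSS range. The part of these cell types in the levels of the 9 genes was not tested.

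Within groups, the likeness of several members rested on WT control 2. After removing group means, log2 levels of *Ly6a* and *Anxa1* had a Pearson r of 0.94, *Anxa1* and *Anxa3* one of 0.87 and *Anxa3* and *S100a6* one of 0.85. WT control 2 was low in all 4 genes, and without it these values were 0.76, -0.07 and 0.31, while that of *Plet1* and *Plet1os* was 0.84. Over the 18 libraries *Anxa3* had an r of 0.91 with *S100a6* and of -0.61 with *Plet1*. The genes most like *Anxa3* were *Thbs4* and *Soat1* (0.98 each), and those most like *Krt7* were *Shf* (0.94) and the BCL2 relative *Bok* (0.93). *Anxa1* was most like *Zfp64* (0.95), *Gprc5a* most like *Tmem43* (0.94), *S100a6* most like *Ttc39a* (0.92) and *Ly6a* most like *Hmgn2* (0.90). These values are descriptions over libraries that fall into groups and differ in region.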

How the data were processed

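RNA-seq had been made from mouse colon, 3 libraries in each of 6 groups, grouped by the labels' genotype and treatment. The authors deposited raw counts per gene, not normalized, in 36 lane columns of 18 libraries. The study names TopHat2 as the aligner and the submitters' processing notes name HISAT2, with featureCounts (Subread) and GRCm38 in the notes. Versions, strand and the treatment of multiply aligned reads were not given in the sources used here.

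The lanes of a library were close to counting noise (chi-square over degrees of freedom 1.08 to 1.17) and were summed. Of 47729 gene identifiers, 47310 matched GENCODE M21. Genes were filtered with filterByExpr, TMM-scaled and fitted in edgeR 4.0.16 (R 4.3.3; quasi-likelihood, robust, all 18 libraries, 1 mean per group), with Benjamini-Hochberg adjustment over 16937 genes at 0.05. CPM are TMM-scaled and log2 CPM use a prior count of 2. Motifs were searched in RefSeq promoters, which 5 of the 9 genes matched.

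The members and gene lists were chosen with earlier results of these data known. Beyond the members, at most 4 called genes per list and contrast (largest absolute log2 fold change, mean of at least 1 CPM), relatives of members and the 3 most alike genes were named. *Cd44*, *Gadd45a*, *Krt5* and *Krt14* were chosen after their values were seen, and 1 gene that the rule names is not reported here. Scripts were tested on simulated counts. Alternatives comprised RLE and upper-quartile scaling, other filters, DESeq2 1.42.0, *Xist* as a covariate, a fit of only the groups compared, each library left out and a replicate block.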

Additional observations from a re-analysis of the deposited data

How the results depend on the processing

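With 3 libraries a group and a fit shared by all groups, few calls near the threshold were stable. Members called in controls between genotypes numbered 0, 1 by DESeq2 and 0 to 1 when single libraries were left out. In WT recovery against controls the count was 0, 1 by DESeq2 and 0 to 4 with single libraries left out, the 4 without WT control 2. In *Cldn2*KO recovery against controls the count was 2, with 1 under upper-quartile scaling, 0 with no filter, 0 with the *Xist* covariate and 5 in a fit of only the groups compared. It was 3 by DESeq2 and 0 to 1 with single libraries left out. Fits of only the groups compared and with single libraries left out have fewer samples. In WT AOM-DSS against controls the count was 1, with 0 with no filter, 2 at 1 CPM in 3 libraries, 0 in a fit of only the groups compared, 2 by DESeq2 and 0 to 1 with single libraries left out (0 without WT control 1, WT control 2 or WT AOM-DSS 3). In *Cldn2*KO AOM-DSS against controls 1 member passed in a fit of only the groups compared. Calls over all genes moved too. In *Cldn2*KO recovery they were 3291, and 3224, 2624, 1887 and 3800 under the first 4 of these settings, 3949 by DESeq2 and 1972 to 2827 with single libraries left out. In WT AOM-DSS they were 1761, and 943, 1740, 7 and 3017 in the order given, and 170 without WT AOM-DSS 3. In *Cldn2*KO AOM-DSS they were 33, and 920 in a fit of only the groups compared. Causes not named here were not tested.

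Estimates that turned sign all missed the threshold. With single libraries left out, *Plet1* between genotypes in recovery ranged from -0.28 (without *Cldn2*KO recovery 2) to 0.32 and was -0.15 without WT recovery 3. *Plet1os* there ranged from -0.85 to 0.20 (without *Cldn2*KO recovery 1) and was 0.11 without *Cldn2*KO recovery 3. *Plet1* in AOM-DSS ranged from -1.89 to 0.75 and its difference from recovery from -1.91 to 0.68, both highest without WT AOM-DSS 3.

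Controls share replicate numbers in their titles. Same-numbered libraries had correlations of deviations from group means of 0.16, 0.00 and 0.08, so the numbers were not taken to pair samples. With the replicate block, 0 members and 179 genes were called between genotypes in controls, against 0 and 199 without it. Counts of listed genes by DESeq2, with the *Xist* covariate and without WT control 2, and correlations without it, were chosen after seeing the data. By DESeq2, 21 of 22 interferon-induced genes were called between genotypes in controls, beside 672 of all genes. In recovery 20 were called, beside 1334 of all genes.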
